A study of Mus musculus with 36 samples.

Results

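The 49 genes described here encode the machinery of mitosis, the division of a nucleus into daughter nuclei. They were taken by symbol from a list of mitotic genes drawn up with earlier results of these data known, by a rule that holds no measured value, and all 49 were found among the 55291 symbols measured. All 49 also passed the filter on low counts, so that every count below is out of the full list. RNA of left ventricles and of atria was sequenced from CUG960 mice, a heart model of myotonic dystrophy type 1 (DM1) in which doxycycline (dox) induces RNA with expanded CUG repeats. All animals carried the genotype TREDT960I (Hom)/ MHCrtTA (Hem), in which the Myh6 promoter limits the dox-dependent transactivator to heart muscle cells, and all were 21 weeks old.

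The 6 cohorts had 3 libraries per chamber, 36 in all, and the study lists ventricle and atria of the same mice in each cohort. The –dox cohort was never given dox. The +dox cohort received dox from postnatal day 1 to the end, and the +/–dox cohort received it from day 1 until it was withdrawn at 9 weeks. The other 3 cohorts, named MBNL1, MBNL2 and MBNL1+MBNL2, were kept on dox throughout and were injected at 9 weeks with AAV9 vectors for tagged human MBNL1, MBNL2 or both, the splicing regulators that the repeat RNA sequesters, under the heart-specific TNNT2 promoter. Repeat RNA and dox itself cannot be told apart in comparisons with –dox or +/–dox, nor can the vector and the MBNL protein it carries in the injected cohorts, since +dox mice were labelled as given dox alone. In tissue RNA, fewer dividing cells and less mitotic RNA per cell cannot be told apart.

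A cell enters mitosis when Cdk1, a kinase bound to B-type cyclins, becomes active. Aurora and Polo-like kinases then help to build the spindle, kinetochores attach chromosomes to it, and a checkpoint delays separation until all are attached. Most of the genes are transcribed late in the cell cycle, under the MuvB complex with B-Myb and Foxm1. Heart muscle cells of the adult mouse rarely divide, so mitotic RNA is scarce in the heart, and other heart cells such as endothelial cells, fibroblasts and macrophages can carry it.

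The late transcription of such genes is known to act through a cell cycle homology region (CHR) and CCAAT boxes. RefSeq promoter windows on GRCm38.p6, 250 bases before to 50 bases after the start, were matched for 40 of the 49 genes, in 42 entries because Ect2 and Prc1 have a pair of starts each. The CHR letters TTTGAA or TTTAAA, on either strand, occurred in 37 of the 42 windows (88.1%) and in 27.6% of all 32851 windows. The CCAAT letters, on either strand, occurred in 30 of 42 (71.4%) against 37.4%, and both motifs in 29 of 42 (69%) against 10.7% of all windows. Shown are 5 of the genes that were lower than +dox in both –dox and +/–dox ventricles in the results below. Their 150 bases before the start follow, with CHR and CCAAT letters of either strand in capitals:
Cdk1, chr10:69352913-69353062, minus strand: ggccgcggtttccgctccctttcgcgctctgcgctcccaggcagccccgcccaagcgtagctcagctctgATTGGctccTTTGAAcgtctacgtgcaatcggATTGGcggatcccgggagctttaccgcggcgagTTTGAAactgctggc
Ccnb1, chr13:100786487-100786636, minus strand: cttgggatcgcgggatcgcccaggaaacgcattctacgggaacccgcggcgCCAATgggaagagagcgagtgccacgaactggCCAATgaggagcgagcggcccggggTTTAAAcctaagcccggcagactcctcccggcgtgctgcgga
Cdc20, chr4:118437344-118437493, minus strand: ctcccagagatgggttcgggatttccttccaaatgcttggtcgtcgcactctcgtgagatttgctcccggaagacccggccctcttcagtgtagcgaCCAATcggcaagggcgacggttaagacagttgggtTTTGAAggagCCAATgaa
Aurka, chr2:172370571-172370720, minus strand: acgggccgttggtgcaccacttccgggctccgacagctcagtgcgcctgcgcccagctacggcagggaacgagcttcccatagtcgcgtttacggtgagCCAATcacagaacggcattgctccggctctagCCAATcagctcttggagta
Spc25, chr2:69206214-69206363, minus strand: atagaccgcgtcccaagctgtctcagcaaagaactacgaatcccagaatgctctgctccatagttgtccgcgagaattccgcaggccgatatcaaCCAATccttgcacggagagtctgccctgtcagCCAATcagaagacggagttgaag
In Aurka and Spc25 the CHR letters stood after the start, outside the stretch shown. The windows of all 5 hold both motifs, which is not so for every gene called in both comparisons. Bub1 had no CHR letters, Birc5 and Anln had no CCAAT letters, and Tpx2 and Kif20a had no matched window. A match of letters is a description and not a tested binding site.

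The members were scarce. On the TPM scale (transcripts per 1e6), which corrects for length, their median of mean levels over the 36 libraries was 0.601, and 36 of 49 averaged below 1 TPM. The highest was Cenpa, the histone H3 variant of centromeres, at a mean of 21 TPM, far above Spc24 at 2.23 and Incenp at 2.12. Smc2, a core condensin subunit, averaged 1.9 TPM and Cdk1 1.64, followed by Cdc20 at 1.56, Birc5 at 1.28, Racgap1 at 1.22, Top2a at 1.18 and Prc1 at 1.13. The lowest were Cdc25c at 0.0636 TPM, Knl1 at 0.151, Kif15 at 0.151, Melk at 0.178 and Kif2c at 0.186. Cdc25c, a phosphatase that activates Cdk1, had a mean of only 6.25 counts per library.

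Libraries held between 55 and 97.1 counts in units of 1e6. The ventricular MBNL1 replicate 1 stood apart, listing 16885 genes above 0 against 20578 to 24041 elsewhere, and 8 of the mitotic genes were at 0 in it. Replicates 1 and 2 of every cohort but MBNL1+MBNL2 carried library numbers of 1 series (set A, 20 libraries), and replicate 3 and all MBNL1+MBNL2 libraries those of another (set B, 16 libraries). All 10 libraries with Xist above 1 TPM were replicate 3 libraries of set B, outside the MBNL1+MBNL2 cohort, where Xist reached at most 0.15 TPM. Xist is transcribed in female cells, and the study lists a female among the mice of every cohort but MBNL1+MBNL2, whose mice were male. Sex and library set cannot be told apart in those cohorts. The endogenous mouse Mbnl1 averaged 49.6 TPM in +dox and 42 TPM in –dox ventricles, and Dmpk 269 and 244 TPM.

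**Figure D1:**
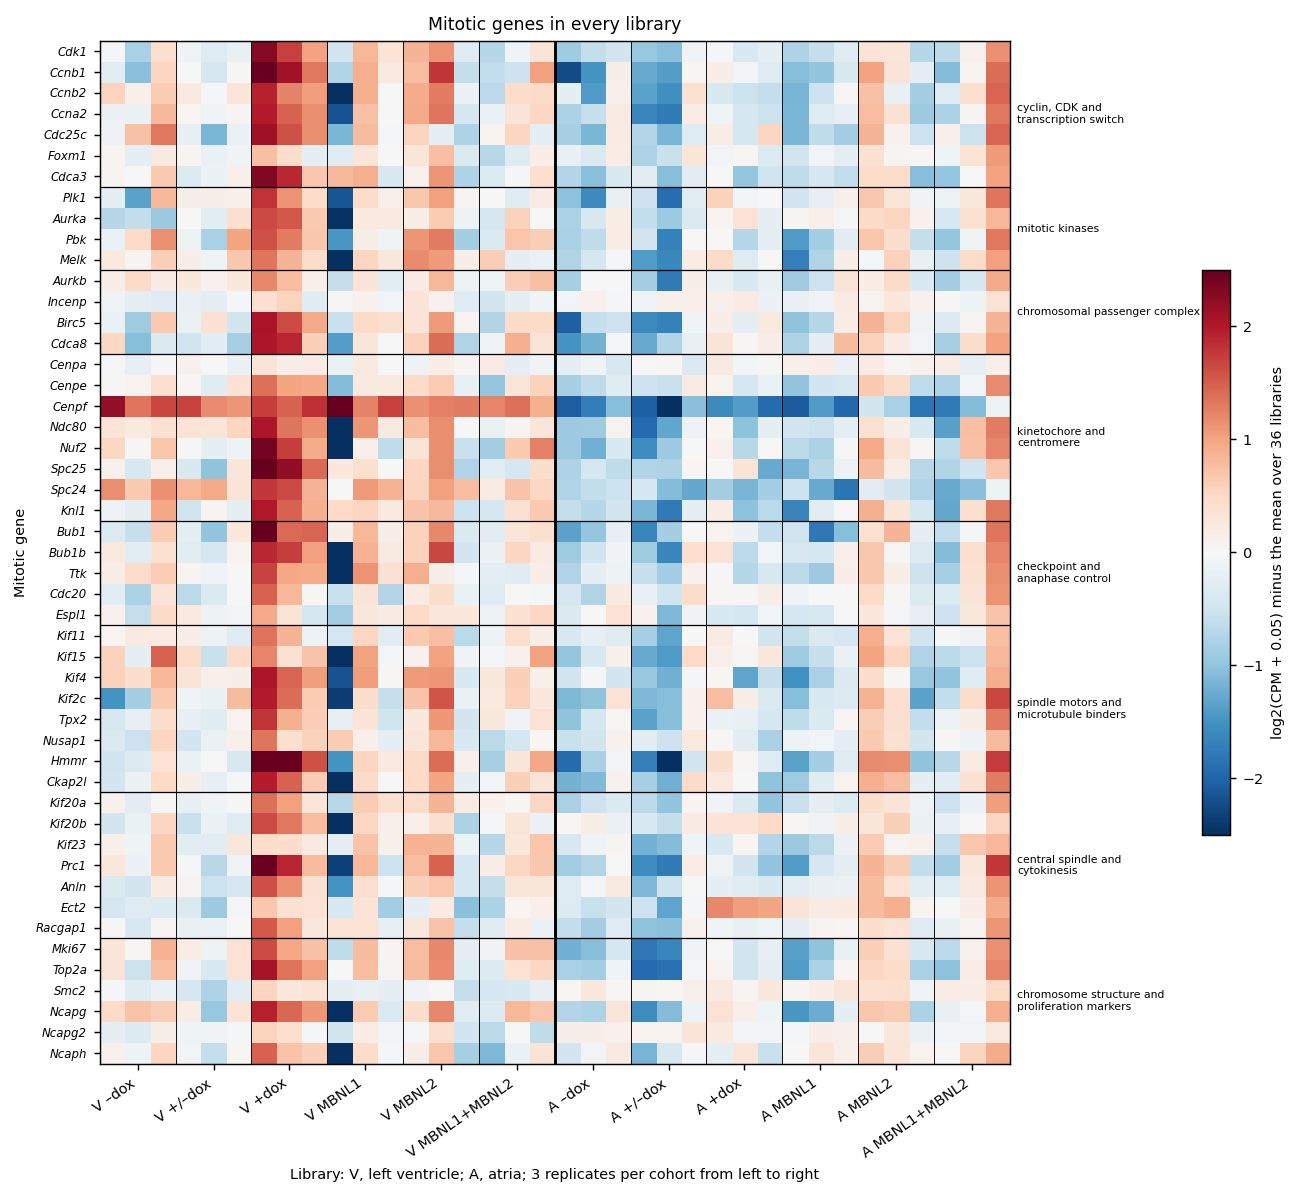
Level of each mitotic gene in each of the 36 libraries, as log2 of CPM plus 0.05 minus the mean of the gene over all libraries, with genes grouped by role and 3 replicates per cohort side by side. The ventricular +dox libraries are the reddest block, replicate 1 most of all, the ventricular MBNL1 replicate 1 column is dark blue for genes at or near 0, and Cenpf is high in all 18 ventricular libraries.

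The first question was whether keeping the repeats on changed the mitotic genes, against animals in which they were never on. In the ventricle 14 of 49 were lower in –dox than in +dox and none higher, with a called gene defined as edgeR's quasi-likelihood test at a Benjamini-Hochberg adjusted p below 0.05 over all 19231 genes and a fold change of at least 1.5. Of all tested genes, 4.13% were called lower. The log2 fold change was negative for 48 of 49, with a median of -1.11 against 0.01 over all genes. In 30 of 49 every –dox library lay below every +dox library, a pattern seen in 16.5% of all genes.

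In the group of cyclins, CDK and transcription factors for mitotic entry, 3 of 7 genes were called. Cdk1 stood at 6.24, 4.16 and 2.53 CPM (counts per 1e6 after normalization) in the 3 +dox ventricles and at 1.19, 0.682 and 1.67 CPM in –dox. The groups did not overlap, and Cdk1 was lower by a log2 fold change of -1.88 ± 0.44 (SE; adjusted p = 0.00226, edgeR). Ccnb1, cyclin B1, its activating partner, measured 4.66, 2.75 and 1.57 CPM in +dox against 0.493, 0.267 and 0.89 in –dox, a log2 fold change of -2.46 ± 0.71 (adjusted p = 0.0129, edgeR). Cdca3, which helps to degrade the Wee1 kinase at mitotic entry, was the other called gene, at -1.57 ± 0.51. Its highest –dox library, 0.871 CPM, and its lowest +dox library, 0.875 CPM, almost met. Foxm1, the transcription factor of late cell cycle genes, was not called, at -0.36 ± 0.30 with overlapping libraries.

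Among the 4 mitotic kinases only Aurka, Aurora A of the centrosome, was called. It measured 2.84, 2.65 and 1.4 CPM in +dox and 0.51, 0.549 and 0.436 in –dox, a log2 fold change of -2.20 ± 0.45 (adjusted p = 0.00067, edgeR). Plk1, Polo-like kinase 1, was at -1.34 ± 0.57 and did not pass (adjusted p = 0.0962, edgeR). In the chromosomal passenger complex, which corrects faulty attachments, Cdca8 (borealin, -1.88) and Birc5 (survivin, -1.69) were called. Its scaffold Incenp (-0.49) had an adjusted p of 0.0446 but missed the fold cutoff, and its kinase Aurkb (-0.51) was not called.

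At the kinetochore, Spc25 of the Ndc80 complex, which binds microtubules, measured 3.5, 2.35 and 1.32 CPM in +dox and 0.51, 0.341 and 0.511 in –dox. Its log2 fold change was -2.40 ± 0.52 (adjusted p = 0.00117, edgeR), and it was the only called gene of 8 in this group. Its partners in that complex, Nuf2 (-1.44), Ndc80 (-1.30) and Spc24 (-0.49), were not called. Cenpf, a large kinetochore protein, had a log2 fold change of 0.09 ± 0.40, the sole positive value of the 49, and Cenpa was at -0.31 ± 0.13.

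Bub1, a checkpoint kinase, stood at 3.07, 1.21 and 1.24 CPM in +dox and at 0.323, 0.267 and 0.682 in –dox. The groups did not overlap, at a log2 fold change of -2.13 ± 0.56 (adjusted p = 0.00661, edgeR). Cdc20, the activator of the anaphase-promoting complex, fell by 1.11 on the log2 scale, although the –dox replicate 3 at 2.06 CPM lay above the lowest +dox library at 1.69. Hmmr, a spindle assembly factor, had the largest called change of the list at -2.74 ± 0.72. It measured 5.74, 3.67 and 1.98 CPM in +dox and 0.425, 0.475 and 0.814 in –dox.

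Tpx2, which activates Aurora A on spindle microtubules, was also called at -1.23. For cytokinesis, Anln (anillin, -1.33), Racgap1 (a centralspindlin subunit, -1.15) and Kif20a (a kinesin of the central spindle, -1.03) were called, and Prc1, which bundles central spindle microtubules, was not, at -1.61 ± 0.67. None of the 6 genes of chromosome structure and proliferation was called. Top2a (topoisomerase II alpha) was at -1.29 ± 0.55 (adjusted p = 0.0966, edgeR), Mki67 (Ki-67) at -0.72 ± 0.48, and Smc2 at -0.56 ± 0.14, just under the fold cutoff (adjusted p = 0.00529, edgeR).

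The ventricular result rested strongly on +dox replicate 1, which was the highest of the 3 +dox ventricles for 47 of 49 genes, and the highest of all 18 ventricular libraries for 45. The +dox replicate 3 was the lowest of its group for 43. As a median over the 49 genes, +dox replicates 1, 2 and 3 lay 3.15, 2.09 and 1.5 times the –dox mean. Without replicate 1, 4 genes stayed called (Cdk1, Aurka, Spc25 and Hmmr) and 46 of 49 log2 fold changes remained negative, with a median of -0.80. In set A alone, 27 genes were called lower, against 4.05% of all genes in that fit. Set B alone, with 1 +dox and 1 –dox ventricle, is given by effect size only. There 33 of 49 were lower in –dox than in +dox, and the median was -0.21.

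**Figure D2:**
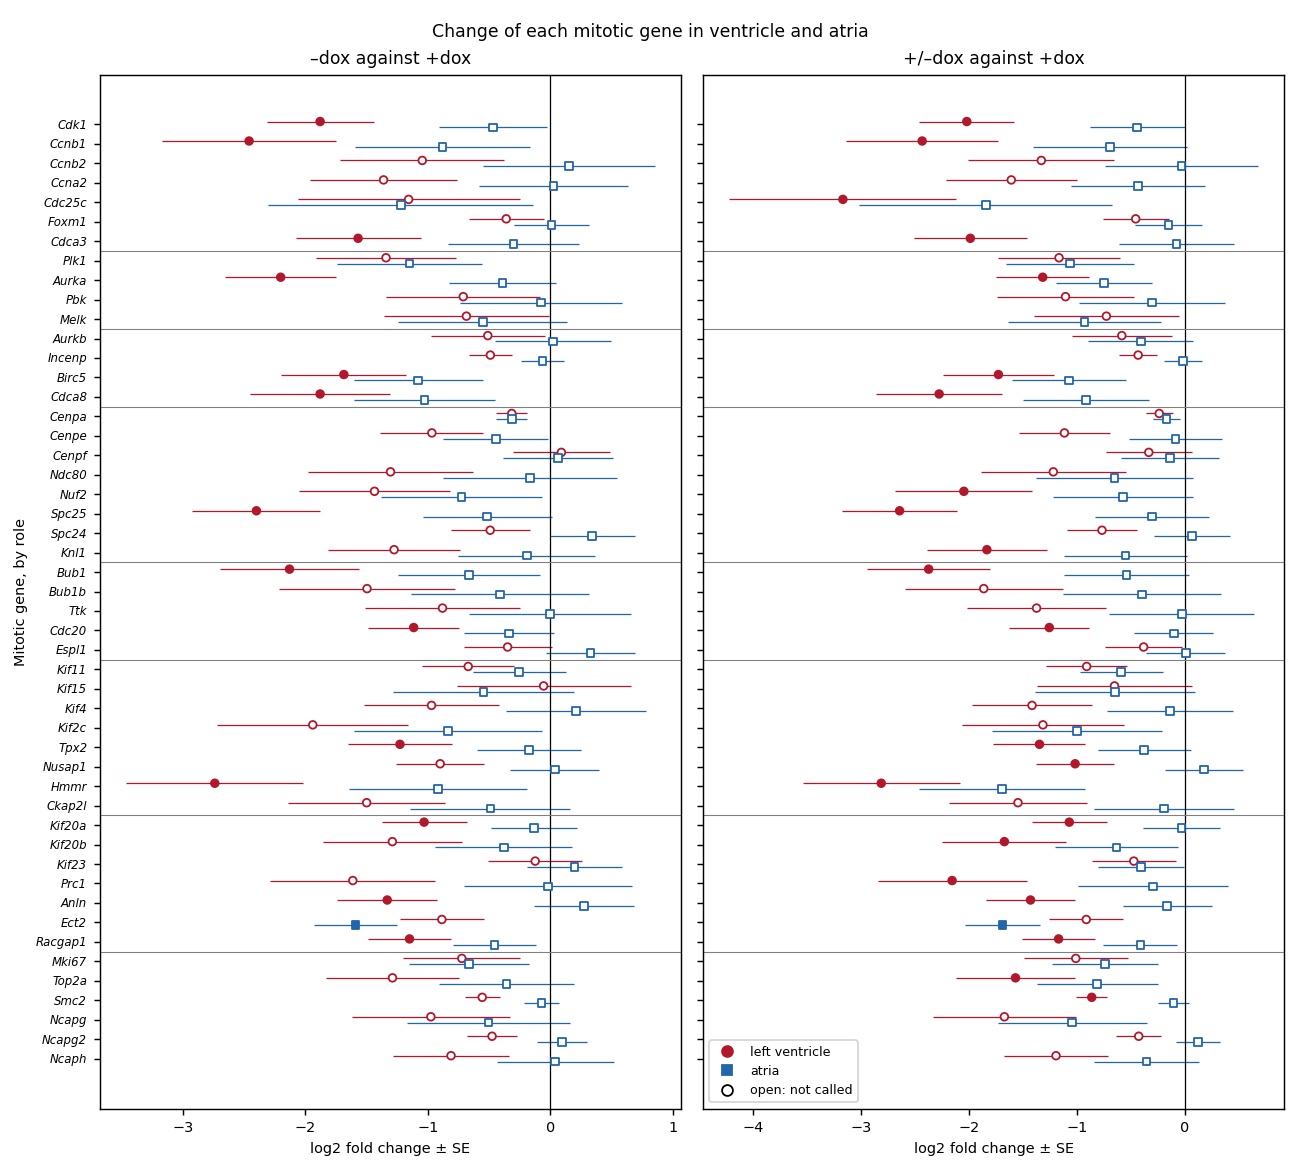
Log2 fold change with its SE for each of the 49 genes in –dox (left panel) and +/–dox (right panel) against +dox, grouped by role, for the left ventricle (circles) and the atria (squares), filled where called. Filled ventricular points number 14 and 22 and all lie left of 0, and Ect2 is the only filled atrial point in either panel.

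The next question was what followed when the repeats were turned off at 9 weeks. In the ventricle 22 of 49 genes were lower in +/–dox than in +dox and none higher, against 3.52% of all genes called lower. All 49 log2 fold changes were negative, with a median of -1.31. In 36 of 49 genes every +/–dox library lay below every +dox library, against 18.9% of all genes. The 14 genes called for –dox were all among the 22, which makes 63.6% of the longer list, but both comparisons share the +dox libraries.

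Cdk1 measured 1.14, 0.983 and 1.07 CPM in +/–dox, a log2 fold change of -2.02 ± 0.44 (adjusted p = 0.00127, edgeR). Spc25 (-2.64 ± 0.53), Hmmr (-2.81 ± 0.73), Bub1 (-2.37 ± 0.57), Ccnb1 (-2.43 ± 0.70) and Cdca8 (-2.27 ± 0.58) were lower again. Aurka was lower by -1.31 ± 0.43. Among the others called for –dox, Cdca3 (-1.99), Birc5 (-1.73), Cdc20 (-1.25), Tpx2 (-1.34), Kif20a (-1.07), Anln (-1.43) and Racgap1 (-1.17) were called again.

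The 8 genes called here and not for –dox were Cdc25c, Nuf2, Knl1, Nusap1, Kif20b, Prc1, Top2a and Smc2. Smc2 had the smallest adjusted p of the list, at 9.84, 8.13 and 8.67 CPM in +dox and 5.04, 3.99 and 5.62 in +/–dox, without overlap, and a log2 fold change of -0.86 ± 0.14 (adjusted p = 6.43e-05, edgeR). Prc1 (-2.15 ± 0.69) and Nuf2 (-2.04 ± 0.63) had larger changes with larger errors. Top2a was at -1.57, Kif20b, a kinesin of cytokinesis, at -1.67, Knl1, the kinetochore scaffold for checkpoint proteins, at -1.83, and Nusap1, a microtubule binder, at -1.01. Cdc25c was at -3.17 ± 1.05 on very few counts, with 1 +/–dox library at 0.

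Without +dox replicate 1, 7 genes stayed called for +/–dox (Cdk1, Cdca3, Cdca8, Spc25, Bub1, Hmmr and Smc2). In set B alone, with a lone library in each of these cohorts, 40 of 49 were lower in +/–dox than in +dox, with a median of -0.63. Direct comparison of –dox with +/–dox ventricles called 0 of 49 genes with edgeR, against 0.0312% of all genes, and 0 with DESeq2, which gave an adjusted p for 18 of them. At an unadjusted p below 0.05 there was 1. The median log2 fold change of –dox over +/–dox was 0.24.

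**Figure D3:**
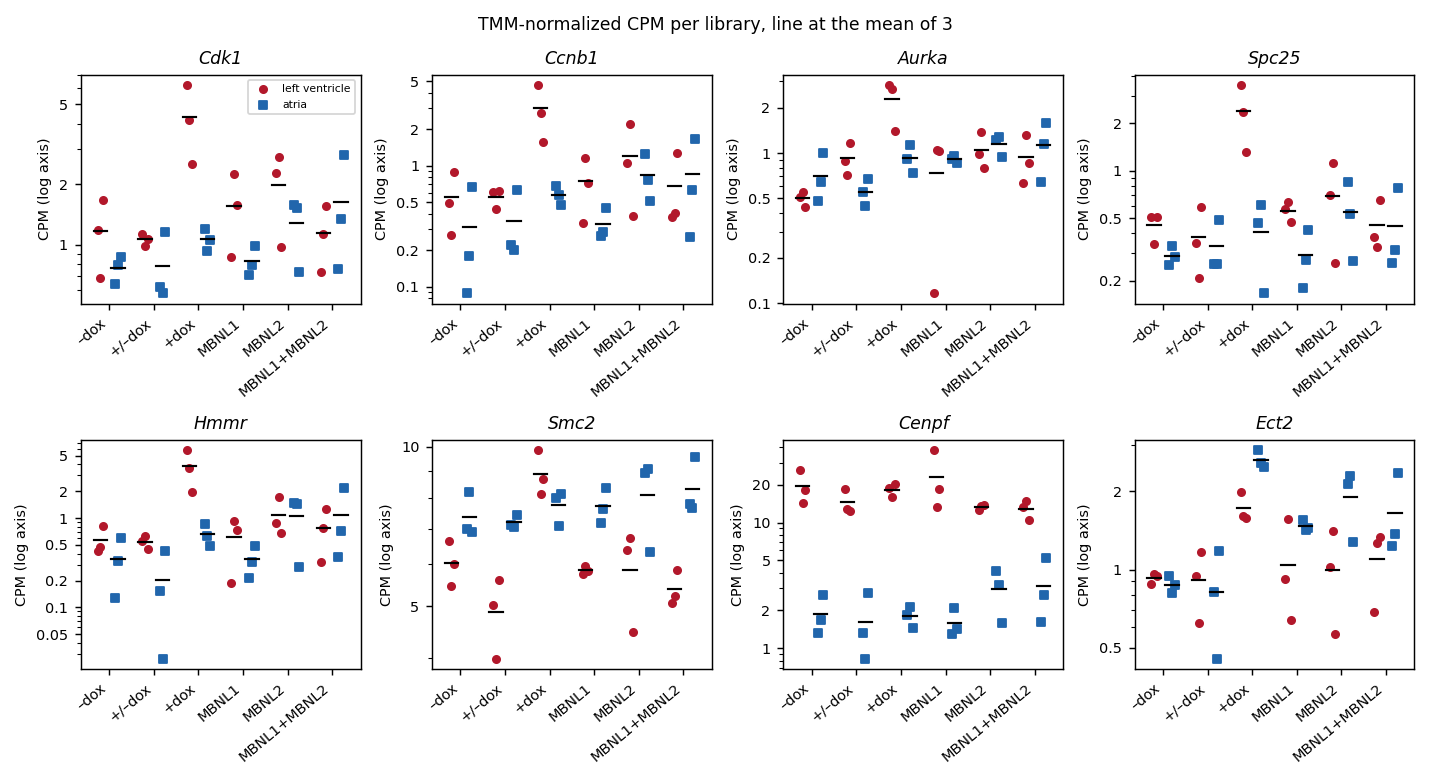
CPM per library on a log axis for 8 genes in each cohort, left ventricle as circles and atria as squares, with a line at the mean of 3. Cdk1, Ccnb1, Aurka, Spc25, Hmmr and Smc2 have their highest ventricular mean in +dox, Cenpf separates the chambers in every cohort, and Ect2 is highest in the atrial +dox cohort.

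The MBNL cohorts addressed whether gene expression differs after injection of MBNL vectors while the repeats stay on. In the ventricle, 9 of 49 genes were called lower than +dox in the MBNL1 cohort, 2 in MBNL2 and 9 in MBNL1+MBNL2, with none higher. The shares of all genes called lower were 1.51%, 0.749% and 1.61%. The median log2 fold changes of the list were -1.29, -0.78 and -1.18, negative in 48, 48 and 49 of 49. Every library lay below every +dox library for 26 genes with MBNL1 (12.9% of all genes), 12 with MBNL2 (15.5%) and 35 with MBNL1+MBNL2 (13.2%). All of these comparisons share the +dox libraries, and the cohorts were not tested against each other here.

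Spc25 was the only gene called in all 5 ventricular comparisons with +dox. It measured 0.567, 0.632 and 0.47 CPM in MBNL1, 0.7, 1.11 and 0.259 in MBNL2, and 0.377, 0.33 and 0.65 in MBNL1+MBNL2, all below the lowest +dox library at 1.32. Its log2 fold changes were -2.10 ± 0.51, -1.79 ± 0.50 and -2.39 ± 0.52 (adjusted p = 0.00936, 0.0268 and 0.00332, edgeR). Smc2 was called in all 3 MBNL cohorts, with 5.76, 5.96 and 5.83 CPM in MBNL1, 6.38, 6.73 and 4.48 in MBNL2 and 5.09, 5.23 and 5.86 in MBNL1+MBNL2. Its log2 fold changes were -0.60, -0.60 and -0.72, the first pair barely past the fold cutoff.

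Cdk1 was called with MBNL1 (-1.46 ± 0.43) and MBNL1+MBNL2 (-1.91 ± 0.44), and Hmmr with the same cohorts (-2.63 ± 0.71 and -2.27 ± 0.70). Aurka (-1.65), Cdca8 (-1.92), Nuf2 (-2.71), Cdc20 (-1.18) and Anln (-1.33) were the others called with MBNL1. With MBNL1+MBNL2 the others were Cdca3 (-1.81), Bub1 (-1.93), Racgap1 (-1.13), Nusap1 (-1.18) and Ncapg2 (-0.74), a condensin II subunit. Of the 49 genes, 26 were called in none of the 5 ventricular comparisons.

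The libraries of the MBNL cohorts were uneven. MBNL1 replicate 1, the library with few genes, was the lowest of its 3 for 39 genes, with Aurka at 0.116 CPM against 1.04 and 1.04, and Nuf2 at 0.0145 against 0.49 and 0.271. The same library had the highest Cenpf of all, at 37.6 CPM, and a Spc25 level between those of the other two. Without it, 3 genes stayed called with MBNL1 (Nuf2, Spc25 and Smc2), while the counts of the other comparisons, which share the estimate of spread, rose to 20 for –dox, 30 for +/–dox, 4 for MBNL2 and 16 for MBNL1+MBNL2. Without +dox replicate 1 the counts were 0 for MBNL1, 0 for MBNL2 and 3 for MBNL1+MBNL2 (Cdk1, Spc25 and Smc2).

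Both MBNL2 calls were lost without MBNL2 replicate 3, the lowest of its group for 46 genes. Without MBNL1+MBNL2 replicate 1, Spc25 and Smc2 were left of the 9. All MBNL1+MBNL2 libraries belong to set B, whose only +dox ventricle is replicate 3, a library with Xist where the MBNL1+MBNL2 mice were male. In set B alone the median over the list was -0.53, with 45 of 49 negative. That fit assumes that the lone +dox library varies like the other groups, so only the effect size is given.

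**Figure D4:**
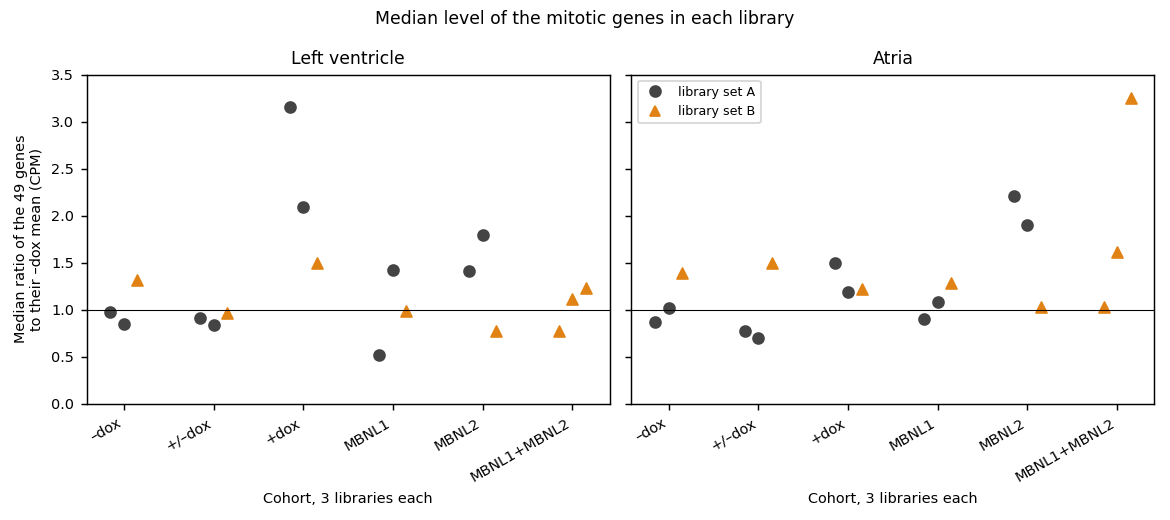
Median over the 49 genes of the ratio of each library's CPM to the –dox mean of its chamber, for each cohort, with circles for library set A and triangles for set B. The 3 ventricular +dox libraries lie at 3.15, 2.09 and 1.5, and the atrial MBNL1+MBNL2 replicate 3 at 3.25 is the highest of the atria.

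In the atria, 1 of 49 genes was called lower in –dox than in +dox, against 2.4% of all genes, and the same gene was the only call for +/–dox, against 1.98%. It was Ect2, which activates RhoA for the contractile ring. Ect2 measured 2.87, 2.58 and 2.47 CPM in +dox, 0.944, 0.809 and 0.874 in –dox and 0.821, 0.455 and 1.18 in +/–dox, without overlap. Its log2 fold changes were -1.59 ± 0.34 (adjusted p = 0.00132, edgeR) and -1.69 ± 0.34 (adjusted p = 0.00106, edgeR), and it stayed called when any single atrial library of either comparison was left out. In the ventricle Ect2 was at -0.88 ± 0.34 and was not called. The difference between chambers was -0.71 ± 0.48 and did not pass (adjusted p = 0.653, edgeR).

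The other 48 genes were not called in the atria. The median log2 fold changes of the list were -0.31 for –dox and -0.40 for +/–dox, negative in 36 and 45 of 49. In the group for mitotic entry the largest change in –dox was that of Cdc25c (-1.22 ± 1.08), among kinases that of Plk1 (-1.15 ± 0.59) and in the passenger complex that of Birc5 (-1.08 ± 0.53). The others were Hmmr (-0.92 ± 0.72), Nuf2 (-0.72 ± 0.65), Bub1 (-0.66 ± 0.58) and Mki67 (-0.66 ± 0.49). All 7 lay within about 2 SE of 0. In +/–dox, replicate 3 was the highest atrial library of its group for 46 genes. In set A alone 7 genes were called for +/–dox, against 2.22% of all genes in that fit, and 2 for –dox, against 2.44%. Set B alone, with a lone library in each of these cohorts, is given by effect size only. There the medians had the opposite sign, at 0.225 for –dox and 0.292 for +/–dox, with 16 and 14 of 49 negative.

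In the atria of the injected cohorts there were 0 calls in each cohort with edgeR and with DESeq2. The shares of all genes called were 0.13% for MBNL1, 0.0052% for MBNL2 and 0.26% for MBNL1+MBNL2. At an unadjusted p below 0.05 there were 2, 0 and 3 genes. Median log2 fold changes were -0.17, 0.43 and 0.59, and positive values prevailed with MBNL2 (3 of 49 negative) and MBNL1+MBNL2 (5 of 49 negative). In the latter cohort replicate 3 was the highest for 48 genes, with Cdk1 at 2.8 CPM against 0.763 and 1.34, and Prc1 at 6.02 against 0.927 and 2.1. In set B alone, with 1 +dox atrial library, median log2 fold changes were 0.105 for MBNL1, -0.181 for MBNL2 and 0.696 for MBNL1+MBNL2. Atrial –dox against +/–dox called 0 genes with edgeR and DESeq2, against 0.0104% of all genes, with 0 at an unadjusted p below 0.05.

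Whether the repeat effect differed between chambers was tested gene by gene as an interaction, and 0 of 49 were called in either case, against 0.764% of all genes for –dox and 0.489% for +/–dox. At an unadjusted p below 0.05 there were 5 and 9 genes. The medians of the atrial minus the ventricular difference were 0.85 and 0.84, with 45 and 47 of 49 above 0. Smc2 came closest in +/–dox, at 0.76 ± 0.20 (adjusted p = 0.0739, edgeR), and DESeq2 called it (adjusted p = 0.0221). Spc25 was at 2.33 ± 0.74 and Aurka, in –dox, at 1.81 ± 0.62, with adjusted p of 0.147 and 0.187 (edgeR). That test treats the chambers as independent. With the animal as a block, taking same-numbered libraries of a cohort as 1 mouse, Spc25 was called for –dox (1.96 ± 0.53, adjusted p = 0.0487, edgeR), and Spc25 (2.43 ± 0.54) and Smc2 (0.77 ± 0.15) for +/–dox (adjusted p = 0.0181 and 0.00893, edgeR). The shares of all genes called in that fit were 1.55% and 1.2%.

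The same test without a block called 4 of 38 other mitotic genes for –dox and 3 for +/–dox, all with a positive atrial minus ventricular difference. For the pair named next, mean TPM fell in ventricles and rose in atria. From +dox to –dox, Smc4 went from 7.56 to 5.11 in ventricles and from 9.69 to 13.5 in atria. Pttg1 went from 11.6 to 3.86 and from 6.77 to 8.07. Smc4, the condensin partner of Smc2, was at 1.05 ± 0.14 and Pttg1 (securin) at 1.91 ± 0.32 in –dox (adjusted p = 5.66e-05 and 0.00134, edgeR). Of 31 DNA replication genes 3 were called in each comparison, among them Mcm2 (1.21 ± 0.25 in –dox) and Mcm7 (0.95 ± 0.21).

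Averaged over the 6 cohorts, 22 of 49 genes were lower in the atria than in the ventricle and none was higher, against 14.5% of all genes called lower. The median log2 fold change was -0.56. With the animal as a block the count was also 22. Set B alone has a lone library per group outside MBNL1+MBNL2 and is given by effect size only. Its median was -0.34, with 39 of 49 negative. The average over cohorts did not hold for each gene in each cohort. Cdk1 measured 6.24, 4.16 and 2.53 CPM in +dox ventricles and 1.21, 0.934 and 1.06 in +dox atria. In MBNL1+MBNL2 it measured 0.736, 1.14 and 1.56 CPM in ventricles and 0.763, 1.34 and 2.8 in atria. The largest difference was that of Cenpf, at -2.98 ± 0.18 (adjusted p = 5.01e-14, edgeR). Its ventricular libraries spanned 10.4 to 37.6 CPM and its atrial libraries 0.829 to 5.2, without overlap. Within the ventricle Cenpf did not differ detectably between cohorts, with log2 fold changes against +dox from -0.52 to 0.34.

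Spc24 followed at -1.74 ± 0.14 (adjusted p = 7.55e-13, edgeR), from 1.18 to 4.1 CPM in ventricles and 0.293 to 1.06 in atria. The remaining 20 lay between -1.03 and -0.63. They included the mitotic kinesin Kif4 (-1.03), Cdc25c (-1.02), Mki67 (-0.89), the checkpoint kinase Bub1 (-0.88), Ccnb1 (-0.87), Ndc80 (-0.86), Cdca3 (-0.85), Hmmr (-0.83), Top2a (-0.81), the kinase Pbk (-0.78), Spc25 (-0.77), Knl1 (-0.76), Ccnb2 (-0.75) and the condensin subunit Ncapg (-0.75). The others were Prc1 (-0.71), Birc5 (-0.70), Ccna2 (cyclin A2, -0.69), Cdk1 (-0.68), the kinase Melk (-0.64) and Nuf2 (-0.63). The group for mitotic entry gave 6 of its 7 genes and the kinetochore group 6 of 8, and the passenger complex 1 of 4. Smc2 (0.36 ± 0.06) and Ect2 (0.40 ± 0.14) lay on the other side of 0 with adjusted p below 0.05, but under the fold cutoff.

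Other cell cycle genes were read from further lists. Of 38 mitotic genes outside the list, 17 were lower in –dox ventricles, 17 in +/–dox, 15 with MBNL1, 5 with MBNL2 and 12 with MBNL1+MBNL2, and none was higher. Ube2c, which adds ubiquitin for the anaphase-promoting complex, was at -2.58 ± 0.58 in –dox, and Pttg1 (securin) at -1.54 ± 0.23. Of 31 DNA replication genes, 15, 15, 9, 10 and 15 were lower and none higher. The shares of all genes called lower were 4.13%, 3.52%, 1.51%, 0.749% and 1.61% in the same order. Mcm2, a subunit of the replicative helicase, was at -1.60 ± 0.18 in –dox and -1.55 ± 0.18 with MBNL1+MBNL2.

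Of the 16 G1 cyclins, CDKs and E2F factors, 2 were called lower in –dox in both chambers. Ccnd2 (cyclin D2) was lower in –dox by -1.72 ± 0.15 in the ventricle and by -1.17 ± 0.14 in the atria (adjusted p = 1.05e-09 and 1.04e-06, edgeR), and Ccne1 (cyclin E1) by -2.65 ± 0.27 and -2.04 ± 0.27. In the atria, 0 of 38 other mitotic genes and 1 of 31 replication genes (Prim1) were called for –dox. Of all tested genes, 2.4% were called lower in that comparison. E2f1, an activator of replication genes, was called in the ventricle (-2.15 ± 0.44), with Cdk6 the only gene higher there (0.72). Of 16 cell cycle inhibitors and repressors, 1 was called in each case. Cdkn2c was lower in –dox ventricles and Cdkn1a in +/–dox ventricles. In the atria Rb1 was higher in –dox and Cdkn1b in +/–dox. Of all 19231 genes, 1461, 1270, 1005 and 767 were called in either direction, in the same order. A single call of 16 is near those shares.

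Markers of the cells in the tissue were read from the same test, which called 1461 of all 19231 genes in either direction in –dox against +dox ventricles. In –dox against +dox ventricles the calls were 1 of 6 cardiomyocyte genes (Ryr2, higher), 1 of 6 endothelial (Tie1, higher), 1 of 4 endocardial (Nrg1, lower), 1 of 8 macrophage (Cd163, higher), 1 of 6 T cell (Cd3g, lower), 1 of 5 mesothelial and 1 of 5 adipocyte genes (both higher). None was called among fibroblast, mural, B cell, neutrophil, red blood cell, chamber or X and Y linked genes. The median log2 fold change was -0.247 over the 8 macrophage and -0.384 over the 5 mesothelial genes, opposite to the higher call in each list. Summed endothelial TPM was 189 to 197 in +dox and 232 to 296 in –dox ventricles, opposite in direction to the mitotic genes. Summed red blood cell TPM was also higher without overlap, at 378 to 1189 in +dox and 1840 to 4122 in –dox. Summed macrophage TPM overlapped, at 89.5 to 142 and 88.2 to 103, as did T cell TPM, at 1.09 to 3.71 and 0.76 to 1.29. The part of these cells in the result was not tested. The atrial chamber markers were higher in atria in 6 of 6 and the ventricular markers lower in 4 of 4.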

How the data were processed

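Stranded poly(A) libraries (Illumina TruSeq) were made from 250 ng of RNA per sample and sequenced as paired reads of 150 bases. According to the submitters' processing notes, the authors used STAR 2.7.10b, RSEM 1.3.1 and the mm10 build (with GENCODE annotation, per the study's methods), and the strand setting is not given in the sources used here. The authors deposited RSEM's expected counts for each gene symbol, without normalization, and TPM values, which are scaled for length and depth.

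Expected counts were rounded to whole numbers. Genes were kept by filterByExpr (19231), normalized by TMM and fitted in edgeR 4.0.16 with 1 mean for each of 12 groups, all 36 libraries together. CPM are TMM-normalized counts per 1e6, used for values of a gene across libraries, and TPM for levels between genes. The mitotic genes and all lists were chosen with earlier results of these data known. Values were given for genes called in any comparison, for the 10 highest and 5 lowest in mean TPM, and for the largest change in –dox against +dox in each of the 8 role groups in each chamber. Other listed genes were named where called. The edgeR steps were tested on data with known changes. Groups came from sample titles. p-values measure the spread between animals as the labels give them. No replicates agreed within sampling noise: the lowest chi-square per gene between replicates was 10.3.

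In 0 of 12 comparisons of cohorts were all 3 correlations of same-numbered deviations over 0.1. Between chambers the study lists the same mice in each cohort, and all 3 correlations were over 0.1 in 3 of 6 cohorts (0.0407 to 0.257). The labels tie no mouse to a library number, so the animal block assumes that a number marks the same mouse in both chambers. Of the 49 genes, 10 overlap a protein-coding gene in GENCODE M21 (GRCm38), and reads there could be shared: Ccna2, Cdc20, Cdca8, Kif20a, Kif4, Nusap1, Prc1, Ncapg, Cdc25c and Foxm1. Alternatives were DESeq2 1.42.0, other size factors, no count filter, no fold cutoff, a replicate block, an animal block for chamber tests (for the chamber differences added after seeing the data), the library set as a term, chambers fitted alone, and each library left out. Splicing and the transgenes were not analysed here.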

Additional observations from a re-analysis of the deposited data

Results flagged for a closer look

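The change against +dox differed between atria and ventricle for Spc25 and Smc2 once the animal was a block in the edgeR fit, with the difference given as atrial minus ventricular log2 fold change. For Spc25 it was 1.96 in –dox and 2.43 in +/–dox, and for Smc2 0.77 in +/–dox. Without the block none of these passed in the edgeR fit of all libraries. Smc2 in +/–dox passed with DESeq2 and with edgeR in set A alone. The fit with the block called 1 of 49 genes for –dox and 2 for +/–dox, against 1.55% and 1.2% of all genes. That fit was added after seeing the data, and it assumes that a library number marks the same mouse in both chambers.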

How the results depend on the processing

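Counts of mitotic genes called lower than +dox depended on the libraries. Leaving out each of the 36 libraries in turn gave, in the ventricle, 4 to 20 for –dox, 7 to 30 for +/–dox, 0 to 18 for MBNL1, 0 to 4 for MBNL2 and 2 to 16 for MBNL1+MBNL2, and in the atria 1 for –dox and 1 to 2 for +/–dox. Atria against ventricle gave 15 to 27, and the chamber differences 0 to 1 each (1 for –dox without the ventricular MBNL1 replicate 1 and 1 for +/–dox without the ventricular MBNL2 replicate 3). Besides the libraries named with the results, –dox fell to 8 without –dox replicate 1 and 5 without –dox replicate 2, and +/–dox to 10, 10 and 13 without its replicates 1, 2 and 3. MBNL1 went to 18 without its replicate 2 and 5 without its replicate 3, MBNL2 to 1 without its replicate 1, and MBNL1+MBNL2 to 5 without +dox replicate 2, 14 without +dox replicate 3 and 4 without its replicate 2. With DESeq2, ventricular counts were 16 for –dox, 29 for +/–dox, 22 for MBNL1, 4 for MBNL2 and 14 for MBNL1+MBNL2. Called lower among all genes were 842 of 17837, 739 of 15897, 399 of 16544, 184 of 14605 and 352 of 16544. For +/–dox 1 chamber difference was called with DESeq2, against 198 of 17190 genes. No filter gave 5 for MBNL1, and the ventricle alone 4. The causes were not tested.

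Fits chosen after seeing the data were the animal block for the chamber differences (1 for –dox and 2 for +/–dox), set A alone, set B alone, and all libraries without the ventricular MBNL1 replicate 1 and +dox replicate 1. Set A alone gave 27 for –dox, 18 for MBNL1 and 1 for MBNL2 in the ventricle, 2 for –dox and 7 for +/–dox in the atria, and 1 chamber difference for +/–dox. Set B alone, with a lone +dox ventricle, gave median log2 fold changes from -1.07 to -0.21 in the 5 ventricular comparisons with +dox. Without both libraries, ventricular counts were 5 for –dox, 12 for +/–dox, 0 for MBNL1, 1 for MBNL2 and 4 for MBNL1+MBNL2.

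With the replicate number as a block, ventricular counts were 14, 23, 16, 2 and 12 in the same order; across cohorts, correlations of same-numbered deviations ran from -0.115 to 0.29, the highest between replicate 3 libraries of the atria, which share library set B. Over 80 named values and 1711 alternative values, 0 reversed and 274 were no longer past the threshold. That count does not cover medians of the list. In the atria these changed sign in set B alone for every cohort but MBNL1+MBNL2. They went from -0.31 to 0.225 for –dox and from -0.40 to 0.292 for +/–dox. For MBNL1 they went from -0.17 to 0.105 and for MBNL2 from 0.43 to -0.181. Most members had few counts, which limits single-gene calls.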
